A study of Homo sapiens with 6 samples.

Results

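The endoplasmic reticulum (ER) folding module comprised 45 genes of the secretory pathway, picked by name from the 23754 features of the deposited table. They cover the translocon, the oligosaccharyltransferase, the lumenal chaperones, the disulfide isomerases, the calnexin cycle, ER-associated degradation and the sensors of the unfolded protein response. All 45 were in the table and 44 passed the filter on low counts. DERL3, a derlin of the degradation pathway, did not pass it. The RNA came from IMR-90 cells, a human fetal lung fibroblast line, carrying a doxycycline-inducible hairpin against ZNF469 (the hairpin sh-2 in a Tet-pLKO-puro lentiviral vector). The 3 Control libraries came from cells without doxycycline (DOX-), and the 3 ShZNF469 libraries from cells given doxycycline at 2 µg/mL for 4 days (DOX+). The labels give the Control genotype as wild type, whereas the study's methods describe the same transduced line without induction. Only 1 hairpin in 1 line was sequenced, and doxycycline was present in 1 group only, so an effect of the drug and an effect of the knockdown cannot be told apart. The series describes the libraries of each group as technical replicates, so the p-values measure the spread between libraries, which may be technical.

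Proteins bound for secretion, procollagens among them, enter the ER through the Sec61 channel, receive N-linked glycans from the oligosaccharyltransferase and fold with the help of Hsp70 and Hsp90 chaperones, lectin chaperones and disulfide isomerases. Chains that fail to fold are taken back to the cytosol and degraded. When unfolded chains accumulate, the sensors IRE1 (gene ERN1), ATF6 and PERK (EIF2AK3) start the unfolded protein response, in which spliced XBP1 and cleaved ATF6 switch on chaperone and degradation genes while PERK lowers translation and favours ATF4. Fibroblasts secrete large amounts of collagen and keep this machinery at a high level.

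XBP1 and ATF6 act on many of these genes through the ER stress response element (ERSE), which is CCAAT, 9 further bases and CCACG. A second form (ERSE-II) is ATTGG, 1 base and CCACG. RefSeq promoter windows of GRCh38.p14, from 250 bases before to 50 bases after the transcript start, were held for 40 of the 45 genes. Searched on both strands, the ERSE was found in the windows of 7 of these 40 genes (CALR, CANX, CRELD2, HSP90B1, HSPA5, PDIA6 and XBP1), which is 17.5%, against 0.0916% of the 27305 genes with a window. The ERSE-II was found in HERPUD1, HYOU1 and SDF2L1, 3 of 40 genes or 7.5%, against 0.0696% of all genes. The 45 genes were picked by name for their roles in this pathway, so these shares describe the choice of genes and were not tested. No gene held both forms, and a match describes the letters of the window, not a bound site. The stretches are shown for the genes given in full by the rule stated under the processing of the data. HSPA5, described below for its role, is outside that rule. Each is written 5′ to 3′ on the strand of its gene, with both boxes of the element in capitals.
PDIA6: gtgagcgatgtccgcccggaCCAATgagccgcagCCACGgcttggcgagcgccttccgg
HSP90B1, upstream site: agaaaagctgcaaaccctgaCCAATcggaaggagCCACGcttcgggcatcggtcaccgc
HSP90B1, downstream site: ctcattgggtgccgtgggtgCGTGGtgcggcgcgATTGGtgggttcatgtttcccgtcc
CALR: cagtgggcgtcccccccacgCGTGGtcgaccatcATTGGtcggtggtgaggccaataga
XBP1: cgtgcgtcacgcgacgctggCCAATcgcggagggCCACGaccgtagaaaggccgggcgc
HERPUD1: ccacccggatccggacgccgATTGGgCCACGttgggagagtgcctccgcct
The PDIA6 stretch lies at chr2:10812833-10812891 on the minus strand, with the element 86 to 68 bases before the RefSeq start. The HSP90B1 stretches lie at chr12:103930196-103930254 and chr12:103930301-103930359 on the plus strand, and the element nearer the start is in the reverse orientation, as is that of CALR at chr19:12938364-12938422 on the plus strand. The XBP1 stretch lies at chr22:28800583-28800641 on the minus strand, 52 to 34 bases before the start. The HERPUD1 stretch, which holds the ERSE-II, lies at chr16:56932005-56932055 on the plus strand.

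The libraries held 34057675 to 36120260 counts, so counting error was small for all but the rarest of these genes. ZNF469, the target of the hairpin, had 118, 112 and 126 CPM (counts scaled to the TMM-normalized library size) in the Control libraries and 80.4, 80.4 and 79.6 CPM in the ShZNF469 libraries, a fold of 0.675 (edgeR FDR 3.31e-05). FDR here is the Benjamini-Hochberg adjusted p of edgeR's quasi-likelihood test over the 13991 features tested. On the first principal component ShZNF469 library 2 stood apart at 32.8, against -12.6 to 0.524 for the other 5 libraries. The fibroblast label fitted the markers, since 8 fibroblast genes summed to 8478 to 8540 FPKM in Control and 7261 to 7348 FPKM in ShZNF469. KRT5, SFTPC, SCGB1A1, PECAM1, CDH5, CD3E, MS4A1 and LYZ had 0 counts in every library. The endothelial marker VWF had 14 to 31 counts. EPCAM, CLDN5, PTPRC and CDH1 had at most 14, 8, 6 and 4 counts. Of the other marker lists, the immune sum of 29.3 to 32.4 FPKM was almost wholly CD68, a lysosomal protein that fibroblasts also make. The smooth muscle sum was 0.464 to 0.56 FPKM in Control and 0.563 to 0.685 FPKM in ShZNF469, and its part in the results was not tested. In such bulk RNA fewer expressing cells and less RNA per cell cannot be told apart.

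Measured per transcript length, levels within the module spanned a wide range. Mean FPKM over the 6 libraries ran from 859 for CALR, the lectin chaperone calreticulin, to 1.27 for ERN1, and to 0.0586 for DERL3. The 15 genes with a mean over 100 FPKM were found in 6 of the 7 groups, and the group without one held the stress sensors and XBP1. HSP90B1 (the Hsp90 paralogue GRP94) followed CALR at 489 FPKM, and HSPA5 (the Hsp70 chaperone BiP) was at 243 FPKM. Among the isomerases PDIA6 and PDIA3 were at 214 and 187 FPKM, whereas PDIA5 and DNAJC10 were at 11.4 and 10.1 FPKM. DERL3 had 1, 5 and 4 counts in Control and 6, 3 and 0 counts in ShZNF469. Its exons overlap those of SMARCB1 on the other strand, so even these few reads are uncertain.

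**Figure D1:**
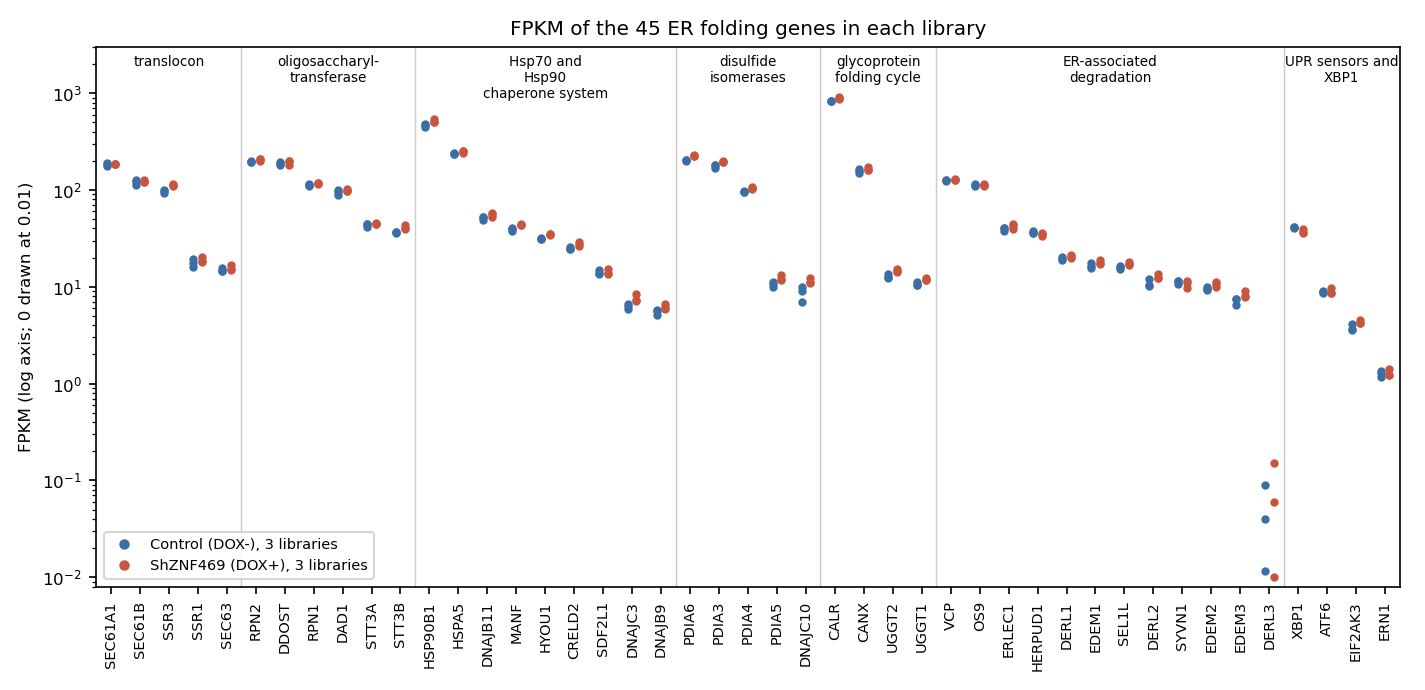
FPKM (log axis) of the 45 genes in each of the 6 libraries, grouped by role, with Control in blue and ShZNF469 in red. CALR lies highest at a mean of 859 FPKM, the stress sensors lie near the bottom, and the shifts between groups are small beside the range between genes.

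After ZNF469 knockdown the module as a whole was slightly higher. Among the genes that were lower, XBP1, the transcription factor downstream of IRE1, and HERPUD1, a target of the stress response, had the largest changes. Of the 44 genes tested, 34 had a higher and 10 a lower fitted level in ShZNF469. Their median log2 fold change was 0.08, against -0.0019 over all features tested, of which 49.3% were higher. The changes were small, from -0.16 (XBP1) to 0.24 (DNAJC3) on the log2 scale. None passed an edgeR FDR of 0.05 in either direction, where 0.4% of all features were called higher and 0.715% lower. At an unadjusted edgeR p under 0.05, 17 genes were higher, against 7.31% of all features, and 2 were lower (XBP1 and HERPUD1), against 7.69%. The groups did not overlap for 17 genes that were higher, against 9.73% of all features, and for 2 that were lower (again XBP1 and HERPUD1), against 10.6%. DESeq2 called 10 genes higher at its FDR of 0.05 (CALR, DNAJC10, DNAJC3, HSP90B1, PDIA3, PDIA4, PDIA6, SSR3, STT3B and UGGT1), against 3.12% of the 7808 features to which it gave an adjusted p, and 1 lower (XBP1), against 3.01%. It gave none to ERN1 and SDF2L1. On the authors' FPKM scale, where the median over all features was 0.03, 39 of the 44 genes were higher and 5 lower. The sign of 9 genes close to 0 turned in at least 1 of the 15 alternative fits (ATF6, CANX, DAD1, DDOST, SDF2L1, SEC61B, SEC63, STT3A and VCP). XBP1, HERPUD1, SYVN1 and OS9 were lower in every fit and on the FPKM scale. SEC61A1 was lower in every fit, at -0.00 with the GC trend removed, but not on the FPKM scale.

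The shift was present in each of the 3 ShZNF469 libraries. The 44 genes deviated from the Control mean by a median of 0.07, 0.08 and 0.064 on the log2 scale in ShZNF469 libraries 1, 2 and 3. In the Control libraries the medians were 0.005, 0.005 and -0.005, values held near 0 because these libraries make up that mean. The medians over all features were between -0.0 and 0.003. All 45 genes together took 1.222%, 1.227% and 1.207% of the counts in Control and 1.28%, 1.304% and 1.28% in ShZNF469, with no overlap between groups. ShZNF469 library 2, which stood apart on the first component, was the highest of the 6 libraries for 22 of the 44 genes. Without it the median was 0.07, against 0.0 over all features, with 36 genes higher and 8 lower. PDIA6 passed the edgeR FDR in that fit, among 38 features called higher.

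**Figure D2:**
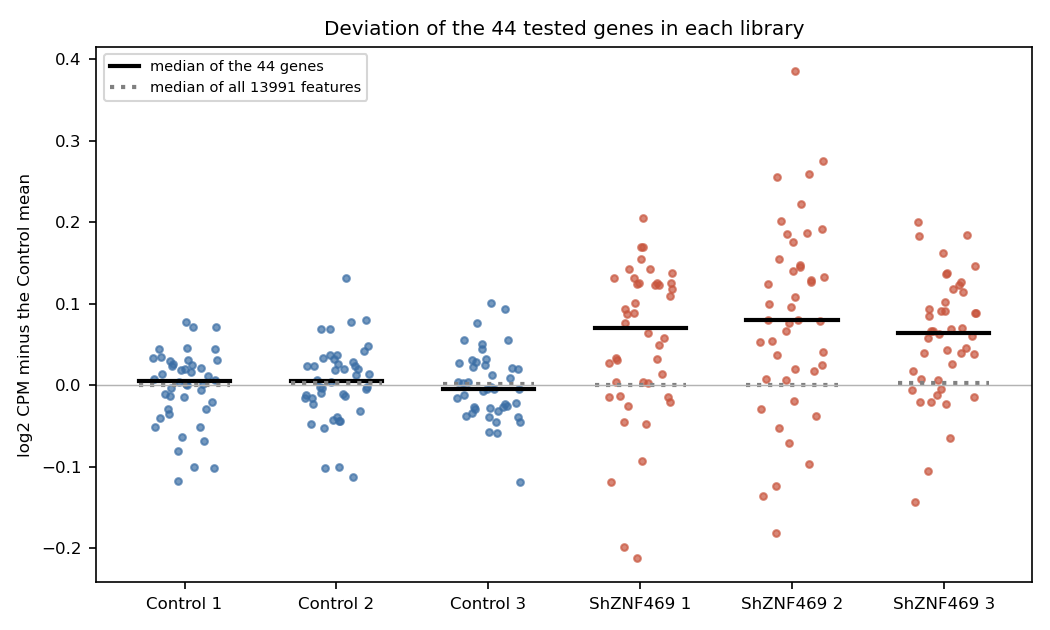
Deviation of each of the 44 tested genes from its Control mean (log2 CPM) in the 6 libraries, with the median of the genes as a black bar and that of all 13991 features as a dotted bar. The black bars lie at 0.064 to 0.08 in the ShZNF469 libraries and within 0.005 of 0 in the Control libraries. The Control bars are held near 0 because the Control libraries make up the mean.

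**Figure D3:**
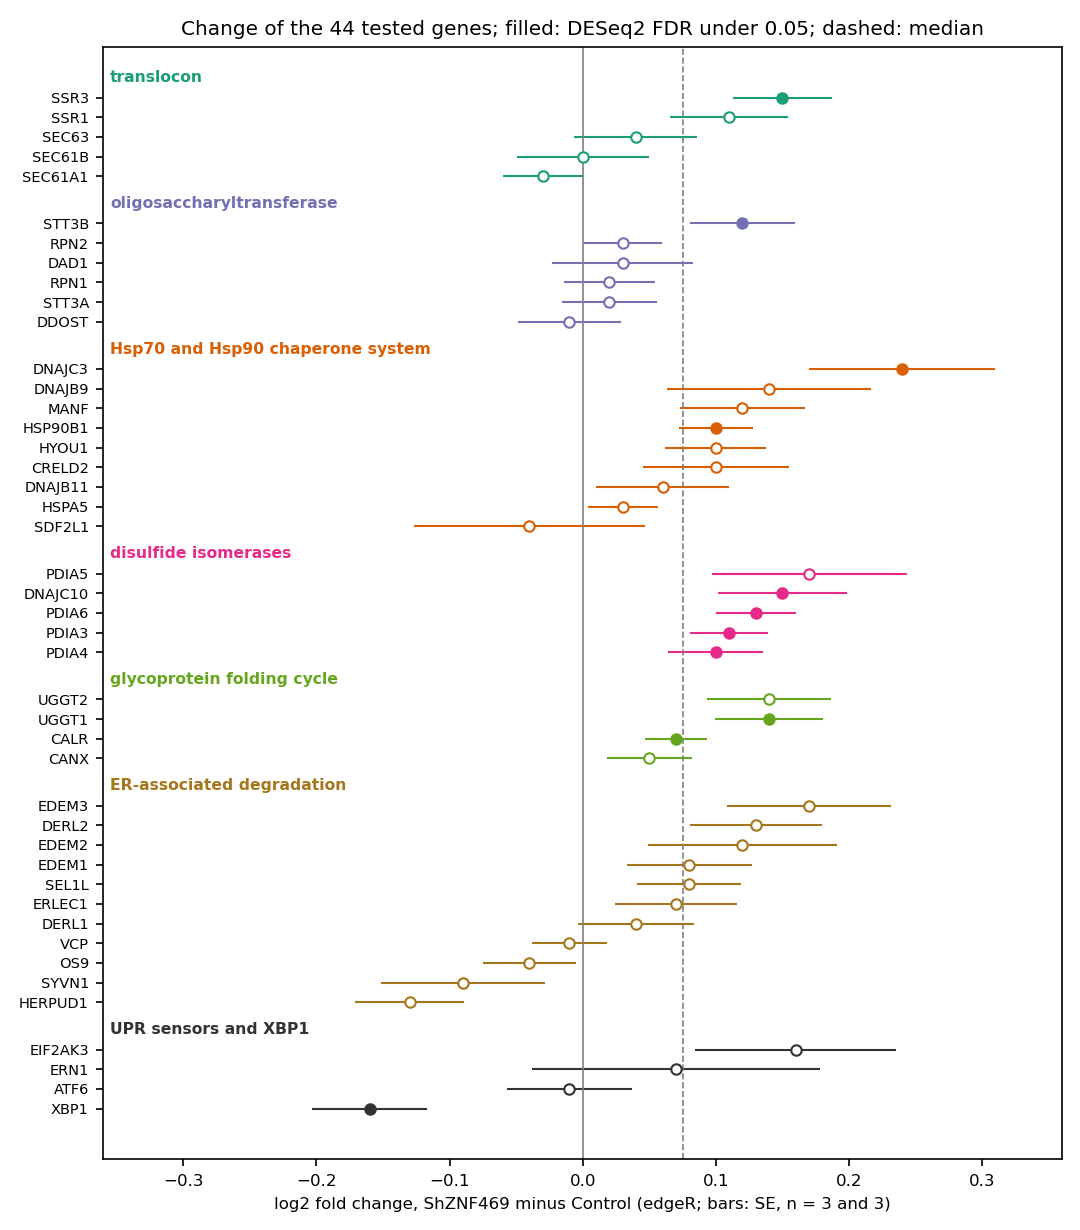
Fitted log2 fold change (ShZNF469 minus Control) with its SE for the 44 tested genes by role, n = 3 libraries a group, filled where DESeq2 gave an FDR under 0.05. All 5 disulfide isomerases lie to the right of 0, and XBP1 and HERPUD1 lie farthest to the left.

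Disulfide isomerases form and reshuffle the disulfide bonds of folding chains. The 5 in the module, picked with earlier results of these data known, all lay on the higher side. The 5 genes had a median log2 fold change of 0.13 and no overlap between groups for any of them, against 9.73% of all features, and 4 were called by DESeq2, against 3.12%. PDIA6, which also binds BiP, had 520, 532 and 524 CPM in Control and 573, 562 and 588 CPM in ShZNF469. The lowest ShZNF469 library thus lay above the highest Control library, at a fold of 1.09 (log2 0.13, SE 0.03, edgeR FDR 0.0666, DESeq2 FDR 0.000123). PDIA3 (ERp57), the isomerase that works with the lectin chaperones on glycoproteins, had 750, 740 and 711 CPM in Control and 796, 804 and 780 CPM in ShZNF469, again without overlap (log2 0.11, SE 0.0294, edgeR FDR 0.0893, DESeq2 FDR 0.0018). PDIA4 (ERp72) had 310, 308 and 308 CPM against 337, 318 and 342 CPM. Its Control libraries were almost equal, and its log2 change was 0.10 (SE 0.0357, edgeR FDR 0.189, DESeq2 FDR 0.0296). DNAJC10 (ERdj5), a reductase that opens disulfides of chains sent for degradation, had 135, 131 and 129 CPM against 141, 157 and 140 CPM, with ShZNF469 library 2 well above the other libraries (log2 0.15, SE 0.0484, edgeR FDR 0.177, DESeq2 FDR 0.0473). PDIA5 had the lowest CPM of the 5 genes, at a mean of 21.2 CPM in Control and 23.8 CPM in ShZNF469 (log2 0.17, SE 0.0732, edgeR FDR 0.298). By FPKM, PDIA5 was close to DNAJC10 (11.4 and 10.1 FPKM). The exons of PDIA5 overlap those of SEC22A on the same strand. The 16 isomerase and oxidase genes outside the module were less one-sided. Of these, 12 lay above Control and 4 below it, and their median log2 change was 0.03. The groups did not overlap for 4 that rose (9.73% of all features) and 2 that fell (10.6%). P4HB, at a mean of 497 FPKM, had a log2 change of 0.05 with overlapping groups (edgeR FDR 0.475). ERP29 fell without overlap (log2 -0.10, edgeR FDR 0.245).

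The glycoprotein folding cycle holds the lectin chaperones CALR and CANX and the glucosyltransferases UGGT1 and UGGT2, which tag misfolded glycoproteins for another round. All 4 were higher, with a median log2 fold change of 0.10, and 3 of them did not overlap between groups, against the same 9.73%. CALR, the most abundant member of the module, had 1733, 1738 and 1777 CPM in Control and 1843, 1795 and 1866 CPM in ShZNF469. This was a small change of 1.05-fold with a narrow error (log2 0.07, SE 0.0234, edgeR FDR 0.189, DESeq2 FDR 0.0371). UGGT1 had 127, 120 and 123 CPM against 139, 133 and 136 CPM (log2 0.14, SE 0.0404, edgeR FDR 0.133, DESeq2 FDR 0.0217). UGGT2, its less active paralogue, had 63, 68.9 and 64.1 CPM against 71.1, 74.3 and 71.1 CPM (log2 0.14, SE 0.0467, edgeR FDR 0.171). The membrane-bound lectin CANX overlapped between groups, at a log2 change of 0.05 with a 95% interval from -0.02 to 0.12, and at -0.01 with the GC trend removed.

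In the Hsp70 and Hsp90 chaperone system 8 of 9 genes were higher, SDF2L1 being the exception. Their median log2 change was 0.10, and 4 did not overlap between groups, again against 9.73%. HSP90B1, whose clients include integrins and Toll-like receptors, had 1461, 1500 and 1437 CPM in Control and 1557, 1632 and 1535 CPM in ShZNF469. All ShZNF469 libraries lay above all Control libraries (log2 0.10, SE 0.028, edgeR FDR 0.108, DESeq2 FDR 0.00711). DNAJC3 (p58IPK), a BiP co-chaperone that also inhibits PERK, had the largest change of the module. It had 39, 36.4 and 41.8 CPM in Control and 44.9, 50.9 and 42.9 CPM in ShZNF469, without overlap but with a wide spread in ShZNF469 (fold 1.18, log2 0.24, SE 0.0697, edgeR FDR 0.125, DESeq2 FDR 0.0427). HSPA5 is given here for its role, since BiP is the classical reporter of ER stress, and was chosen after its values were seen. It had 1023, 1035 and 1034 CPM in Control and 1021, 1070 and 1060 CPM in ShZNF469, so the groups overlapped, and its log2 change of 0.03 had a 95% interval from -0.03 to 0.08 (edgeR FDR 0.676). HYOU1, a large Hsp70 relative that acts as nucleotide exchange factor for BiP, and MANF, a secreted stress-induced factor, had log2 changes of 0.10 and 0.12 without overlap. The BiP cofactors DNAJB9, DNAJB11 and SDF2L1 and the isomerase-like CRELD2 overlapped between groups, at log2 changes of 0.14, 0.06, -0.04 and 0.10.

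Of the 5 translocon genes, 3 were above and 2 below Control. SSR3, a subunit of the translocon-associated protein complex beside the channel, had 370, 375 and 351 CPM in Control and 411, 413 and 389 CPM in ShZNF469. The groups did not overlap (fold 1.11, log2 0.15, SE 0.037, edgeR FDR 0.0826, DESeq2 FDR 0.00143). SSR1, of the same complex, had a log2 change of 0.11 with groups that overlapped slightly (edgeR FDR 0.245, DESeq2 FDR 0.0977). The other two subunits of this complex, SSR2 and SSR4, which are outside the module, overlapped between groups as well, at 0.06 (edgeR FDR 0.5) and -0.03 (edgeR FDR 0.809). The subunits of the channel itself overlapped between groups. SEC61A1, its pore-forming subunit, had 758, 719 and 760 CPM in Control and 733, 719 and 735 CPM in ShZNF469, with overlapping groups (log2 -0.03, SE 0.0301, edgeR FDR 0.659) and a 95% interval from -0.10 to 0.03. Its exons overlap those of RUVBL1 on the other strand, and the library kit does not mark the strand. SEC61B and the BiP-recruiting SEC63 had log2 changes of -0.00 and 0.04.

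Of the 6 oligosaccharyltransferase subunits, 5 were higher and 1 lower, and the median log2 fold change was 0.03. STT3B was the only subunit whose groups did not overlap, against 9.73% of all features. This catalytic subunit glycosylates sites the other complex has skipped. It had 174, 174 and 173 CPM in Control and 186, 198 and 182 CPM in ShZNF469 (log2 0.12, SE 0.0398, edgeR FDR 0.189, DESeq2 FDR 0.0475). STT3A, the catalytic subunit bound to the translocon, had a log2 change of 0.02 with a 95% interval from -0.05 to 0.10. Its exons overlap those of CHEK1 on the same strand, a gene with 1070 to 1252 counts. RPN2, the most abundant of the shared subunits, had 535, 553 and 549 CPM in Control and 551, 552 and 563 CPM in ShZNF469. These groups overlapped, and the interval of its log2 change of 0.03 (SE 0.0293, edgeR FDR 0.729) ran from -0.04 to 0.09. RPN1, DAD1 and DDOST were between -0.01 and 0.03.

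The genes of ER-associated degradation lay in both directions, with 7 of its 11 tested genes above Control and 4 below it at a median log2 change of 0.07. The lowest was HERPUD1, a membrane scaffold of the retrotranslocation complex and a strong target of the stress response. It had 87.4, 92.1 and 92.2 CPM in Control and 83.3, 82.4 and 82 CPM in ShZNF469. The ShZNF469 libraries were close to each other and all below Control (fold 0.912, log2 -0.13, SE 0.0411, edgeR FDR 0.152, DESeq2 FDR 0.0804). EDEM3 and DERL2 had log2 changes of 0.17 and 0.13, and SEL1L, the partner of the ubiquitin ligase SYVN1, had 0.08. The groups did not overlap for these 3 genes, against 9.73% of all features. The exons of DERL2 overlap those of MIS12 on the other strand, a gene with 463 to 607 counts. EDEM3 belongs to the mannose-trimming EDEM proteins, of which EDEM1 and EDEM2 were at 0.08 and 0.12 with overlapping groups, and DERL2 is a derlin of the retrotranslocation channel, beside DERL1 at 0.04. SYVN1 (HRD1) itself was at -0.09 with a 95% interval from -0.23 to 0.04, and its exons overlap those of FAU on the same strand, a gene with 4201 to 5273 counts. The lectins OS9 and ERLEC1, which hand glycoproteins to this ligase, were at -0.04 and 0.07. VCP (p97), the cytosolic ATPase that pulls chains out of the membrane, was the most abundant of the group and close to equal between groups. It had 612, 604 and 611 CPM in Control and 603, 597 and 616 CPM in ShZNF469 (log2 -0.01, SE 0.0282, edgeR FDR 0.919, interval from -0.07 to 0.05).

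The stress sensors were expressed at low levels, and edgeR called none of the 3 at an FDR of 0.05, nor did DESeq2 call ATF6 or EIF2AK3. ERN1 had 8, 7.76 and 8.06 CPM in Control and 8.27, 7.73 and 9.03 CPM in ShZNF469 (log2 0.07, SE 0.108, edgeR FDR 0.806). At this level its 95% interval ran from -0.16 to 0.31, so a change of the size of the other members' would not be detectable. ATF6 had 74.6, 73.3 and 73.6 CPM against 71.5, 78 and 70.6 CPM, with Control inside the ShZNF469 range (log2 -0.01, SE 0.0467, edgeR FDR 0.949). EIF2AK3 had 18.2, 21.4 and 19.1 CPM against 21.6, 22.8 and 21.2 CPM. The highest Control library lay within the ShZNF469 range (log2 0.16, SE 0.0754, edgeR FDR 0.349). XBP1, whose mRNA is spliced by IRE1, was the member with the largest decrease. It had 81.5, 83 and 85 CPM in Control and 72.5, 73.3 and 77.3 CPM in ShZNF469, without overlap (fold 0.894, log2 -0.16, SE 0.043, edgeR FDR 0.101, DESeq2 FDR 0.0366). Its sign was the same in all 15 alternative settings. Gene-level counts do not separate spliced from unspliced XBP1, and the activity of the sensors, which lies in their proteins, was not measured.

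Of 14 members listed as targets of XBP1 or ATF6, 3 were lower (XBP1, HERPUD1 and SDF2L1). The remaining 11 were higher (CRELD2, DNAJB9, DNAJB11, DNAJC3, HSP90B1, HSPA5, HYOU1, MANF, PDIA4, PDIA6 and SEL1L). This list is a choice, and it leaves out CALR and CANX, which hold an ERSE. Over all 14 genes the median log2 change was 0.10. The share of higher genes among the 14, 78.6%, was close to the 77.3% of the module as a whole, and none passed the edgeR FDR. The list for the PERK and ATF4 branch, outside the module, was also a choice, made with earlier results of these data known. All 7 of its genes were lower (median -0.29). The groups did not overlap for 6 of them, against 10.6% of all features. TRIB3, a pseudokinase induced by ATF4, fell from 33.7, 29.6 and 34.2 CPM to 20, 18.2 and 22.2 CPM (log2 -0.69, SE 0.0809, edgeR FDR 0.000747). CHAC1, a glutathione-degrading enzyme of the same branch, fell from 104, 112 and 104 CPM to 90.4, 86 and 86.6 CPM (log2 -0.29, SE 0.0448, edgeR FDR 0.00615). The other 5 genes (ATF4, DDIT3, PPP1R15A, SESN2 and ATF3) did not pass the edgeR FDR, and ATF3 overlapped between groups. DDIT3 shares exon positions with MARS and MBD6 on the other strand, so its reads are uncertain. EIF2S1 and PPP1R15B, which also belong to translation control in this response, were not in the list. They were at 0.03 and 0.07 with overlapping groups, and EIF2AK3 (PERK) was at 0.16. The difference between the branches was not tested.

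**Figure D4:**
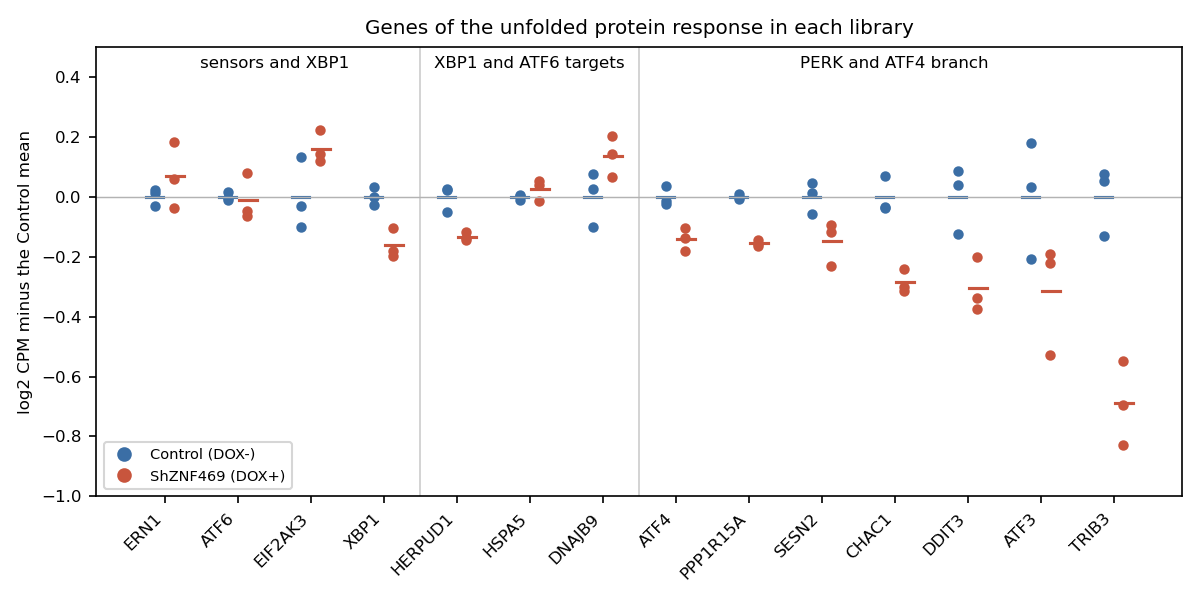
Deviation from the Control mean (log2 CPM) of the sensors and XBP1, 3 XBP1 or ATF6 targets and 7 genes listed for the PERK and ATF4 branch, with 3 Control (blue) and 3 ShZNF469 (red) libraries and the mean of each group as a bar. The 3 targets drawn (HERPUD1, HSPA5 and DNAJB9) are a choice from the 14 listed, of which 11 were higher and 3 lower. The 7 targets that were higher without overlap between groups, against 9.73% of all features, are not drawn. The 2 that were lower without overlap (XBP1 and HERPUD1), against 10.6%, are drawn. TRIB3 and CHAC1 lie below Control in every ShZNF469 library, with means of -0.69 and -0.29, while HSPA5 overlaps Control.

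In the wider pathway the directions were closer to balance. Among 126 further genes of the same roles, all tested, 71 lay above and 55 below Control at a median log2 change of 0.01, and 1 was called higher and 4 lower at an edgeR FDR of 0.05, against 0.4% and 0.715% of all features. Besides TRIB3 and CHAC1, the called genes were QSOX1 at -0.14 (a sulfhydryl oxidase of the late secretory pathway, edgeR FDR 0.0462), CREB3L1 at -0.22 (OASIS, an ER-anchored transcription factor that acts on collagen genes, edgeR FDR 0.0485) and ALG11 at 0.81 (a mannosyltransferase of glycan assembly, edgeR FDR 0.00851). ALG11 shares exons with UTP14C on the same strand, so its value is uncertain. Without any 1 of 5 libraries (all but ShZNF469 replicate 3) QSOX1 (FDR 0.0648 to 0.179) and CREB3L1 (FDR 0.104 to 0.205) did not pass, nor did ALG11 without Control replicate 1 (FDR 0.0762). In the remaining groups the gene with the smallest p was LMAN1, a cargo lectin of ER exit, at 0.18 (edgeR FDR 0.0668, DESeq2 FDR 0.000619), SPCS3 of the signal peptidase at 0.19 (edgeR FDR 0.114), the torsin TOR1B at 0.16 (edgeR FDR 0.163) and the chaperone BAG6 at -0.08 (edgeR FDR 0.316). Of the 17 further genes of the stress response 13 were lower and 4 higher, but these include the 7 genes of the PERK and ATF4 branch given above. The remaining 10 had 6 lower and 4 higher at a median of -0.02. The 16 further isomerase and oxidase genes had 12 higher and 4 lower at a median of 0.03.

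Genes with the promoter element were found in both directions. Of the 10 genes with an ERSE or ERSE-II, 7 were above and 3 below Control. Their median log2 change was 0.06, with a range from -0.16 (XBP1) to 0.13 (PDIA6). Of the 30 tested genes with a window and no element, 23 were above and 7 below Control at a median of 0.08. XBP1 and PDIA6 thus carry the same element, printed above, and lie at opposite ends of this range.

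The size of the shift moved with the base composition of the exons. The 19 genes under 45% GC had a median log2 fold change of 0.11, with 18 higher and 1 lower, and the 25 genes at or over 45% GC a median of 0.03, with 16 higher and 9 lower. After a trend of each library on GC content was removed, these medians were 0.06 and 0.05, and that of all members was 0.06. The AT-rich genes DNAJC10, UGGT2 and SSR3 went from 0.15, 0.14 and 0.15 to 0.07, 0.07 and 0.08, while the GC-rich genes CALR, HYOU1 and CRELD2 went from 0.07, 0.10 and 0.10 to 0.10, 0.14 and 0.16. XBP1 and HERPUD1 were at -0.15 and -0.13. In that fit 6 genes passed the edgeR FDR as higher (CALR, HSP90B1, HYOU1, PDIA3, PDIA4 and PDIA6) and XBP1 as lower (FDR 0.0424), among 146 features called higher and 178 lower.

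**Figure D5:**
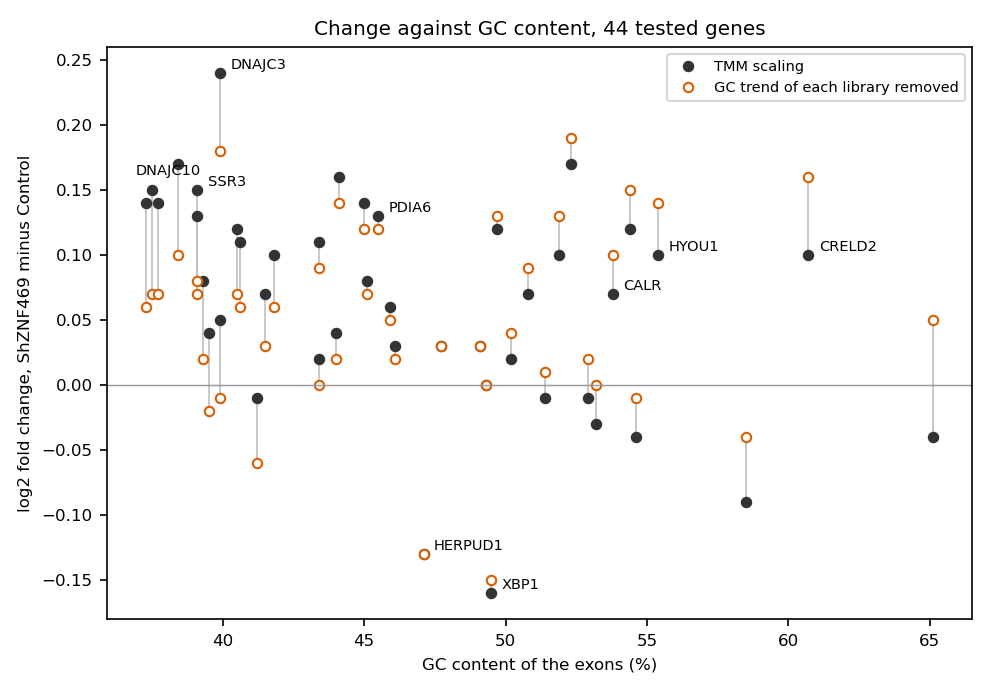
Fitted log2 fold change of the 44 tested genes against the GC content of their exons (%), with TMM scaling (filled) and after the GC trend of each library was removed (open), the 2 values of a gene joined by a line. Genes under 45% GC move down and most genes over 50% GC move up, while XBP1 and HERPUD1 stay at -0.15 and -0.13.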

How the data were processed

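Poly(A) RNA of 6 libraries was sequenced on a NovaSeq. Per the study's methods, HISAT2 mapped the reads to GRCh38 and StringTie followed. Versions, annotation and the counting step are not given in the sources used here. The deposited table holds whole-number counts, not normalized, and FPKM values computed by the authors. The FPKM values served for levels between genes and entered no test. The 17 stray lines without a gene were dropped. Unannotated loci held 0.938% to 0.996% of the counts.

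Counts were fitted over the whole table with edgeR 4.0.16 in R 4.3.3 (filterByExpr with a minimum count of 10, TMM, quasi-likelihood test, no covariates, Benjamini-Hochberg over 13991 features). The SE is the absolute log2 fold change over the square root of F, and the intervals use the degrees of freedom of the fit. Alternatives were DESeq2 1.42.0, limma-voom 3.58.1, other filters and scalings, GC and length trends (lowess span 0.3), a replicate block and leaving out each library. The fits were checked on simulated counts. Exon positions, GC content and overlaps came from GENCODE on GRCh38, which may not be the authors' release.

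The members and lists were chosen with earlier results of these data known. Given in full are members past an FDR of 0.05 in edgeR or DESeq2, the 12 with the smallest p, the sensors and XBP1, and the gene with the highest FPKM of each of the 7 groups. From the wider pathway, genes past the edgeR FDR and the gene with the smallest p of each group are named.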

Additional observations from a re-analysis of the deposited data

How the results depend on the processing

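The count of members at an FDR of 0.05 depended on the method. It was 0 higher and 0 lower with edgeR, also with a CPM filter, upper-quartile scaling and limma-voom, and with an added limit of 1 on the absolute log2 fold change. It was 10 higher and 1 lower with DESeq2, 6 and 1 with the GC trend removed, 2 higher with the length trend removed (CALR and PDIA6), 1 with library size scaling (PDIA6) and 1 without a filter on low counts (SSR3). At an unadjusted p it was 17 higher and 2 lower. Leaving out 1 library gave 0 to 1 higher (PDIA6 without ShZNF469 replicate 2) and 0 lower. The cause was not tested. The median log2 fold change was 0.10 with library size scaling, 0.09 with the length trend removed, 0.06 with the GC trend removed, 0.07 to 0.08 with 1 library left out, and 0.11 on deposited FPKM means (an alternative chosen after seeing the data, where all features had a median of 0.03). Over all features the calls, 56 higher and 100 lower, became 244 and 235 with DESeq2, 146 and 178 with the GC trend removed, 127 and 163 without a filter, 88 higher with library size scaling, and as few as 20 and 54 with 1 library left out. Equal replicate numbers did not pair the libraries (correlations of deviations -0.0241, -0.0352 and 0.0363), and the fit with a replicate block called 4 members higher (HSP90B1, PDIA3, PDIA6 and SSR3), with 135 and 157 features called overall. The sign turned for VCP (0.01 with library size scaling and with the GC trend removed, and -0.02 to 0.00 with 1 library left out) and for ATF6 (0.01 with library size scaling, and -0.05 to 0.02 with 1 library left out). QSOX1 and CREB3L1 lost their calls under library size and upper-quartile scaling (FDR 0.0619 and 0.0623, 0.0576 and 0.0567). The ZNF469 decrease kept its direction and its call in all alternatives. Low counts limit the rarer genes, such as ERN1, SDF2L1 and DERL3, while the abundant chaperones are limited by the spread between libraries.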
